A study of Homo sapiens with 3 samples.

Results

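The genes described here are the 7 of the INK4 and CIP/KIP families of inhibitors of cyclin-dependent kinases (CDKs), measured by RNA sequencing of HCT116, an established human colon cancer line. They were taken by symbol from a table of read counts with 48162 entries, in which each of the 7 symbols has 1 entry. The 3 libraries were made from cells left untreated, cells transfected 24 hours earlier with an siRNA (a small interfering RNA, which lowers its target mRNA) against CDK4, and cells given 1 µM palbociclib, an inhibitor of CDK4 and CDK6, for 24 hours. Each group is 1 library of total RNA from this 1 line, so no spread between cultures can be estimated, no test was run, and brackets hold 95% intervals for counting error only. Controls for transfection or for the solvent of the drug were not analysed here, and the untreated library served both treatments.

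The families block the same cell cycle step in different ways. INK4 proteins (p16, p15, p18 and p19, from CDKN2A, CDKN2B, CDKN2C and CDKN2D) bind CDK4 and CDK6 alone and keep them from D-type cyclins. CIP/KIP proteins (p21, p27 and p57, from CDKN1A, CDKN1B and CDKN1C) bind whole cyclin and CDK complexes, inhibit CDK2, and can also help CDK4 and cyclin D to assemble. Both lead to the retention of RB and its relatives in their growth-restraining, unphosphorylated form. Much of the control of p27 is on protein stability, which mRNA does not show. HCT116 is known for a damaged p16 reading frame with the intact copy silenced by methylation, while ARF, another protein made from CDKN2A, uses its own start.

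The starts of 3 INK4 genes are shown because CDKN2C and CDKN2B had the largest differences of their family and because CDKN2A reads can come from more than 1 start. RefSeq promoter entries were found for 6 of the 7 genes, 9 in all, and CDKN1C is named only. Each sequence holds the 250 bases before a RefSeq start in build GRCh38.p14, printed 5′ to 3′ on the gene's strand. The counts were made on hg19 and do not separate starts. Capitals mark matches, on either strand, to GGGCGG (GC box), TTTCCCGC, TTTCGCGC, TTTGCCGC or TTTGGCGC (E2F), TGACGT (cyclic AMP response element), TGACTCA (AP-1), CACGTG (E-box) or CCAAT, and neighbouring GC boxes can share bases.
CDKN2C, start 1, chr1:50960495-50960744, plus strand: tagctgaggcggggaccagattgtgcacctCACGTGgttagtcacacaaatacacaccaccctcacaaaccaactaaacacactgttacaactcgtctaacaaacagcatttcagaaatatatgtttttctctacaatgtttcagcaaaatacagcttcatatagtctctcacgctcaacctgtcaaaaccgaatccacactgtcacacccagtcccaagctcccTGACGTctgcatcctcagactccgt
CDKN2C, start 2, chr1:50968456-50968705, plus strand: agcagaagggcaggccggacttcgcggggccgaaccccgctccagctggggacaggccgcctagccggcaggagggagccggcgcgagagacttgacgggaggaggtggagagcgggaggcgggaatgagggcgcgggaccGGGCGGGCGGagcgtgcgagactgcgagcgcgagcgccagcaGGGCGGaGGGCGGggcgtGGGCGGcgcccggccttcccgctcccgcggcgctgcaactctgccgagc
CDKN2C, start 3, chr1:50969995-50970244, plus strand: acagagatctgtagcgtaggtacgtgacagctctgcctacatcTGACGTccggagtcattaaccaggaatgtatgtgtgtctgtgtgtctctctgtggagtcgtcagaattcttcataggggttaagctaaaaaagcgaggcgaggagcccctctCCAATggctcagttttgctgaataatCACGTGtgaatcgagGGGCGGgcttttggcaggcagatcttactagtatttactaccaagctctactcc
CDKN2B, chr9:22009306-22009555, minus strand: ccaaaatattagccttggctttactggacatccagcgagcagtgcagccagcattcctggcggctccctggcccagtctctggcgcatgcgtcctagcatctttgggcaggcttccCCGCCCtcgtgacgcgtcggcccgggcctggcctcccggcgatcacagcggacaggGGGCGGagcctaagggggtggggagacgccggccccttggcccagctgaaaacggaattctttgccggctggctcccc
CDKN2A, upstream start (known to give ARF), chr9:21995325-21995574, minus strand: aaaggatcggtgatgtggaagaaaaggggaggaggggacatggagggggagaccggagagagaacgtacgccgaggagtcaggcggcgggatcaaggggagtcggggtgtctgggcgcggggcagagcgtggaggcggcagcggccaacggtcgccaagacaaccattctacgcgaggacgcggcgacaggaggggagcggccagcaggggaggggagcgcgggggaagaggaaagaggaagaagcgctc
CDKN2A, downstream start (known to give p16), chr9:21974858-21975107, minus strand: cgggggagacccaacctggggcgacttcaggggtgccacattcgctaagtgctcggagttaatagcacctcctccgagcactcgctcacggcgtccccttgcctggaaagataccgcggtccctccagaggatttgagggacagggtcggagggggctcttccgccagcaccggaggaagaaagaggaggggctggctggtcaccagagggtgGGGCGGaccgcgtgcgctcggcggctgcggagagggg
Start 2 of CDKN2C is the richest in G and C of the 9 entries at 77.2% and holds 5 GC boxes, whereas the other two hold 45.6% and 48.8% and each carry 1 TGACGT and 1 CACGTG. CDKN2B holds 2 GC boxes, the p16 start of CDKN2A 1, and the ARF start none of the motifs. Over the 35116 promoter entries, 42.6% held a GC box, 2.79% one of the E2F words, 7.10% TGACGT, 4.20% TGACTCA, 6.34% CACGTG and 32.0% CCAAT. These matches describe letters only.

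The libraries held 18020870 to 20313597 reads. Of 10 colon epithelial markers 7 to 9 had reads, with a summed level of 4572 to 5177 CPM (read counts relative to library sizes scaled by TMM, the trimmed mean of M-values). CEACAM5 had no reads, which allows up to 3 counts per library, and KRT20, VIL1 and LGALS4 had 22 or fewer. Markers of other cell types summed to 1 to 54 reads for blood, most of them CD14 in the palbociclib library with PTPRC and CD3E at 0. They summed to 145 to 434 reads for fibroblasts, nearly all COL1A1 with COL1A2 and LUM at 0, and to 9 to 15 reads for the 3 endothelial markers found, with CDH5 at 0. Their part in the results was not tested. In bulk RNA, fewer cells of a kind and less RNA per cell cannot be told apart. CDK4, the siRNA target, had 2689 untreated, 1059 siRNA and 1426 palbociclib reads, a ratio to untreated of 0.42 (0.391 to 0.451) with siRNA and 0.686 (0.643 to 0.732) with palbociclib.

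A gene was called higher or lower when its log2 ratio, after a prior count of 2, reached 1 in either direction and the counting interval of its ratio excluded 1. Genes were compared when their mean over the libraries was at least 1 CPM, which kept 12694 genes and all 7 inhibitors. With palbociclib, CDKN1C and CDKN2B were higher and CDKN2C was lower against untreated, while the other 4 did not reach the 2-fold size. Over all genes compared, 10.0% were higher and 13.6% lower in that comparison, 23.6% in all, against 2 higher and 1 lower of the 7 inhibitors. With CDK4 siRNA none of the 7 was called, where 1.1% of all genes were higher and 0.118% lower, 1.22% in all. Directly between palbociclib and siRNA, CDKN1A joined CDKN1C and CDKN2B as higher and CDKN2C was again lower, where 8.75% of all genes were higher and 13.8% lower, 22.6% in all. By counting intervals alone, with siRNA 2 of the 7 lay below 1 (23.7% of all genes did) and none above 1 (17.7%). Against untreated with palbociclib 4 lay above 1 (36.0%) and 2 below (41.9%), and between the treatments 4 lay above 1 (35.7%) and 2 below (41.4%). The comparisons share libraries in pairs and are not independent. Total-count scaling in place of TMM moved the median log2 ratio of all genes for palbociclib against untreated from −0.07 to −0.27. The split of calls then went from 1269 higher and 1722 lower to 852 and 2420, and between the treatments from 1111 higher and 1753 lower to 668 and 2632.

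**Figure D1:**
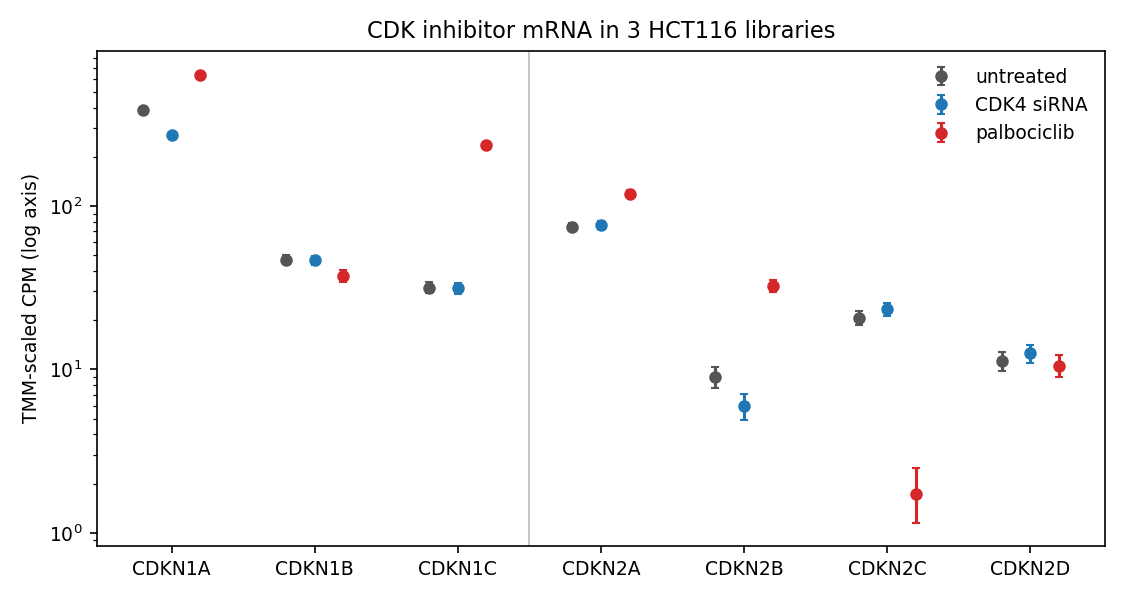
TMM-scaled CPM of the 7 inhibitor genes (log axis) in the untreated, CDK4 siRNA and palbociclib libraries, 1 library each, with CIP/KIP genes left and INK4 genes right of the line. Bars are exact 95% Poisson intervals. CDKN1C stands at 237 CPM and CDKN2C at 1.72 CPM with palbociclib, far from the other libraries.

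Levels between genes are compared per length, in the deposited FPKM (fragments per kilobase of gene, scaled to library size). In untreated cells the order was CDKN1A at 176, CDKN2A at 60.2, CDKN1B at 18.2, CDKN1C at 15.9, CDKN2D at 8.14, CDKN2C at 7.34 and CDKN2B at 2.37 FPKM. The siRNA library had the same order, from 129 FPKM for CDKN1A to 1.63 for CDKN2B. In both, the intervals of the neighbours CDKN1B and CDKN1C overlapped, as did those of CDKN2D and CDKN2C. With palbociclib CDKN1A stayed first at 254 FPKM, CDKN1C came second at 104, ahead of CDKN2A at 83.7, and CDKN2B, last in the others, stood above CDKN2D and CDKN2C at 7.49. CDKN2C was last at 0.535 FPKM, and the only neighbours with overlapping intervals were CDKN2B and CDKN2D at 6.67. The highest inhibitor mRNA exceeded the lowest 74.5-fold untreated, 79.1-fold with siRNA and 475-fold with palbociclib.

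CDKN1A, the gene of p21, was the most abundant inhibitor mRNA in every library. Its reads numbered 8094 untreated, 5347 with siRNA and 10348 with palbociclib, that is 385 (377 to 394), 271 (264 to 279) and 637 CPM (625 to 650). The siRNA library was thus the lowest and the palbociclib library the highest, with no overlap of counting intervals. Against untreated its ratio was 0.704 (0.68 to 0.729) with siRNA and 1.65 (1.61 to 1.7) with palbociclib, both short of the 2-fold size. The siRNA ratio is nonetheless far out among all genes of that comparison, since 242 of 12694 had a lower log2 ratio. Across 11507 genes, all from the same pair of libraries, siRNA log2 ratios correlated with transcript GC content (Spearman 0.332). With that trend subtracted, the log2 ratio of CDKN1A went from −0.51 to −0.62. Between palbociclib and siRNA the ratio was 2.35 (2.27 to 2.43), called higher, but with total-count scaling its log2 ratio was 0.98 and it was not called.

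CDKN1B, which encodes p27, stayed short of the 2-fold size in every comparison. It had 983, 919 and 608 reads in the untreated, siRNA and palbociclib libraries, or 46.8 (43.9 to 49.8), 46.6 (43.7 to 49.8) and 37.5 CPM (34.5 to 40.5). The palbociclib library was the lowest, at 0.8 of the untreated level (0.722 to 0.886), and the siRNA ratio was 0.997 (0.91 to 1.09). With total-count scaling the log2 ratio of palbociclib against untreated went from −0.32 to −0.52.

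CDKN1C, the gene of p57, an inhibitor known to be expressed from the maternal chromosome, had the largest increase of the 7. Its reads numbered 664 untreated, 618 with siRNA and 3848 with palbociclib, or 31.6 (29.3 to 34.1), 31.4 (28.9 to 33.9) and 237 CPM (230 to 245). The first pair was close, at a ratio of 0.992 (0.888 to 1.11), and the palbociclib library stood alone. Palbociclib was at 7.5 times the untreated level (6.9 to 8.15) and 7.56 times the siRNA level (6.94 to 8.24). Of 12694 genes, 90 had a higher log2 ratio against untreated.

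CDKN2A, which encodes p16 and ARF, was the most abundant INK4 gene in all 3 libraries. It had 1569, 1507 and 1935 reads in the untreated, siRNA and palbociclib libraries, or 74.7 (71.1 to 78.5), 76.5 (72.7 to 80.5) and 119 CPM (114 to 125). The palbociclib library was higher than the others, at 1.6 times the untreated level (1.49 to 1.71), below the 2-fold size, while the siRNA ratio of 1.02 (0.953 to 1.1) included 1. The count does not separate p16 from ARF transcripts.

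CDKN2B, the gene of p15, was the INK4 gene with an increase past the rule. Its reads numbered 188 untreated, 117 with siRNA and 528 with palbociclib, or 8.95 (7.72 to 10.3), 5.94 (4.91 to 7.12) and 32.5 CPM (29.8 to 35.4). As for CDKN1A, the siRNA library was lowest and the palbociclib library highest, and the intervals did not overlap. The ratio to untreated was 0.663 (0.522 to 0.84) with siRNA, a log2 ratio below which lay 151 of 12694 genes, and 3.63 (3.07 to 4.31) with palbociclib. Palbociclib against siRNA gave 5.48 (4.47 to 6.75). CDKN2A and CDKN2B are neighbouring duplicates with a closely similar exon, so reads from it could be assigned to either.

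CDKN2C, the gene of p18, had the largest difference of any member. Its reads numbered 433 untreated, 460 with siRNA and 28 with palbociclib, or 20.6 (18.7 to 22.7), 23.4 (21.3 to 25.6) and 1.72 CPM (1.15 to 2.49). Untreated and siRNA overlapped, at a ratio of 1.13 (0.991 to 1.29), and the palbociclib library was far below both. It held 0.0837 of the untreated level (0.0549 to 0.123), or 12.0-fold less, and 0.0739 of the siRNA level (0.0485 to 0.108). Of all genes compared, 9 had a lower log2 ratio against untreated and 7 against siRNA.

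CDKN2D, the gene of p19, showed no difference that the counts could resolve. It had 235, 247 and 171 reads in the untreated, siRNA and palbociclib libraries, or 11.2 (9.8 to 12.7), 12.5 (11.0 to 14.2) and 10.5 CPM (9.01 to 12.2). All intervals overlapped. The ratios to untreated were 1.12 (0.933 to 1.35) with siRNA and 0.941 (0.768 to 1.15) with palbociclib, so differences inside those bounds were not detectable at this depth.

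**Figure D2:**
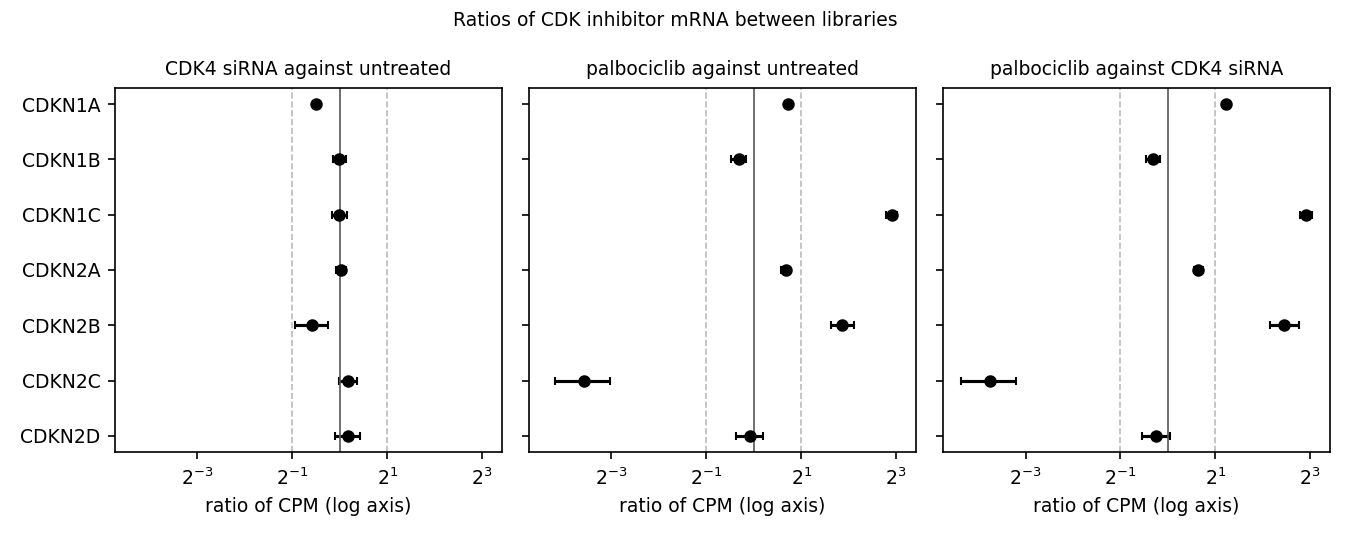
Ratio of TMM-scaled CPM (log axis) of each inhibitor gene in the 3 comparisons, with exact 95% Clopper-Pearson counting intervals. The solid line marks 1 and dashed lines mark a 2-fold difference. With CDK4 siRNA all 7 genes lie between the dashed lines, and with palbociclib CDKN1C, CDKN2B and CDKN2C lie outside them.

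Summed per length, the make-up of each family differed between libraries. The CIP/KIP genes summed to 210 FPKM untreated, 164 with siRNA and 371 with palbociclib. CDKN1A made up 83.8%, 78.5% and 68.5% of that sum, CDKN1B 8.66%, 11.5% and 3.42%, and CDKN1C 7.58%, 10.0% and 28.1%. The palbociclib library thus held more CIP/KIP mRNA, and p57 mRNA took a larger part of it. The INK4 genes summed to 78.0, 83.7 and 98.4 FPKM. CDKN2A made up 77.1%, 76.4% and 85.1%, CDKN2B 3.03%, 1.95% and 7.61%, CDKN2C 9.41%, 10.3% and 0.544%, and CDKN2D 10.4%, 11.3% and 6.78% of the sum. The INK4 total with palbociclib was therefore above the untreated one although the p18 part had nearly gone from it. That holds only with CDKN2A, whose reads include ARF. Without CDKN2A the sum was 17.8 FPKM untreated, 19.7 with siRNA and 14.7 with palbociclib.

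**Figure D3:**
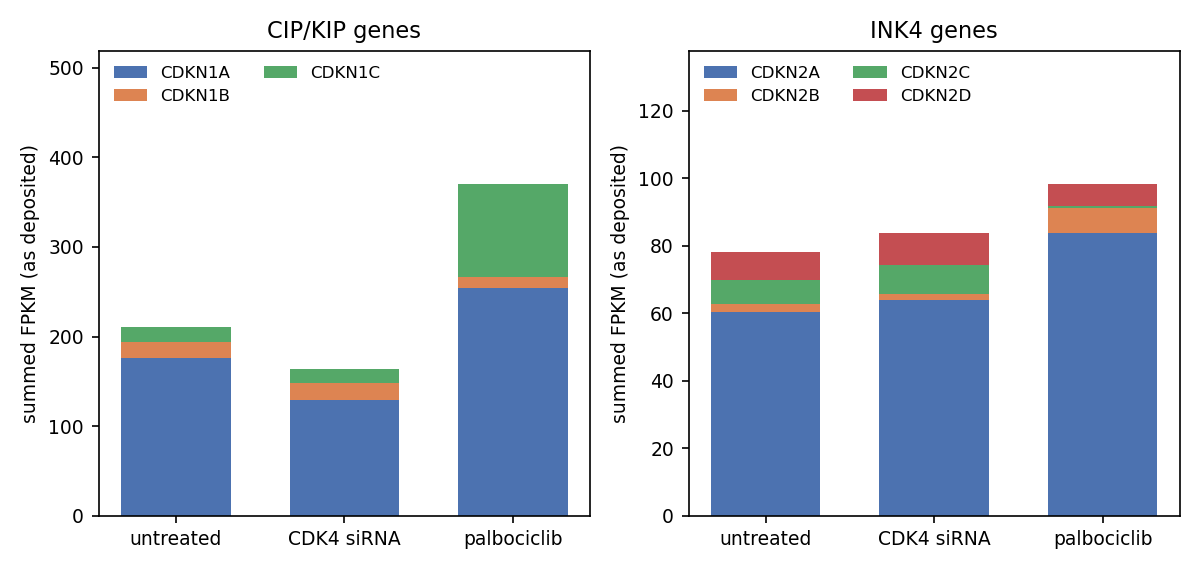
Deposited FPKM of the CIP/KIP genes (left) and INK4 genes (right), stacked by gene, in the 3 libraries, 1 library per bar. With palbociclib the CDKN1C block widens to 28.1% of the CIP/KIP sum and the CDKN2C block narrows to 0.544% of the INK4 sum.

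INK4 mRNA can be set beside the mRNA of the kinases that these proteins bind. CDK4 and CDK6 together stood at 73.7 FPKM untreated, 35.8 with siRNA and 52.8 with palbociclib, so that summed INK4 mRNA was 1.06, 2.34 and 1.86 times theirs. CDKN2A, whose reads include ARF, which does not bind these kinases, makes up most of that sum, and without it the ratios were 0.242, 0.551 and 0.279. With or without CDKN2A, the siRNA library had the highest ratio, and it had the lowest CDK4, at 27.8 FPKM against 63.8 untreated. For CDK6 the ratio to untreated was 0.779 (0.732 to 0.83) after siRNA and 1.69 (1.61 to 1.79) after palbociclib. Summed CIP/KIP mRNA was 11.1, 8.06 and 33.1 times that of CDK2 in the same order. These ratios are taken within a library and do not depend on its scaling, but they say nothing of protein amounts.

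Across the plane of both log2 ratios against untreated, the members took different places. CDKN1A and CDKN2B were lower with siRNA and higher with palbociclib, each with both intervals excluding 1. The 3 genes nearest to a member in that plane were sought among 10354 genes with a mean of at least 5 CPM, by Euclidean distance over that pair of log2 ratios. For CDKN2C they were PSRC1, DHRS3 and LZTS1, at distances of 0.18, 0.23 and 0.28, and only 2 genes lay within 0.25. For CDKN2B they were KIF27, KRT80 and ZBED6, with 6 genes within 0.25, and for CDKN1C LAMB3, CD55 and SRXN1, with 8. CDKN1A had HIST1H1C, ZFAND6 and RPL23A and 73 genes within 0.25, where reads of the histone and ribosomal protein gene can be split among similar copies. The remaining members lay in crowded places. CDKN2A had RAE1, RANBP9 and TSHZ1 nearest and 1077 genes within 0.25, CDKN2D had DIRAS1, PHF2 and KCTD11 and 1182, and CDKN1B had PGAM5, NAAA and DLG3 and 1775.

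**Figure D4:**
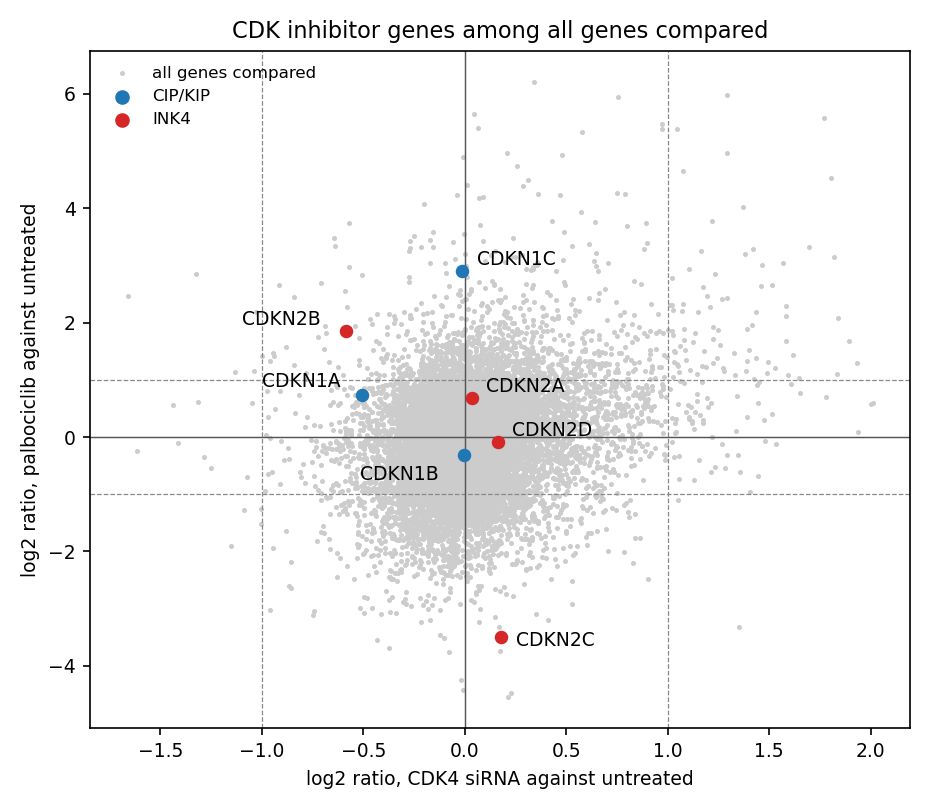
Log2 ratio against untreated for CDK4 siRNA (horizontal) and palbociclib (vertical) of the 12694 genes compared (grey), with CIP/KIP genes in blue and INK4 genes in red. Both axes use the same untreated library, and dashed lines mark a log2 ratio of 1. CDKN2C lies near the lower edge at −3.50 and CDKN1C at 2.90 on the vertical axis, both near 0 on the horizontal axis.

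Of the 11 compared genes for kinases and cyclins that the inhibitors bind, 5 were lower by the rule with palbociclib and none higher. Over all genes compared, 13.6% were lower and 10.0% higher. The list median was −0.56 on the log2 scale against −0.07 over all genes. CCNE2, a cyclin partner of CDK2, was at 0.187 (0.125 to 0.272), CCNA2 at 0.282 (0.259 to 0.305), CCNB1 at 0.336 (0.318 to 0.355) and the mitotic kinase gene CDK1 at 0.407 (0.376 to 0.439). With siRNA, CDK4 alone of these genes was called (1.22% of all genes were), and the median was −0.12 against −0.02 over all genes. CCND2 had no reads and CCNA1 at most 2, where 3 reads correspond to 0.143 to 0.185 CPM. RB1, RBL1 and RBL2, which encode the RB proteins that CDK4, CDK6 and CDK2 phosphorylate, were at 0.702 (0.634 to 0.777), 0.498 (0.416 to 0.594) and 0.725 (0.587 to 0.894) with palbociclib. RBL1 misses the rule after the prior count, and with total-count scaling it was called lower.

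Among genes that act on the turnover of the CIP/KIP proteins, SKP2 stood out by size. It encodes the ubiquitin ligase subunit that marks p27 for degradation, and it had 1959 untreated, 1547 siRNA and 280 palbociclib reads. Its ratio was 0.842 (0.787 to 0.9) with siRNA and 0.185 (0.163 to 0.21) with palbociclib. CKS1B, its cofactor, was at 1.35 (1.28 to 1.42) with palbociclib, from the larger of 2 entries of that symbol. RNF123, a subunit of another p27 ligase, was at 1.66 (1.5 to 1.84), the furthest above untreated. UBAC1, listed beside RNF123, went the other way, at 0.566 (0.51 to 0.628). By counting intervals alone, 3 of the 11 compared genes lay above 1 with palbociclib (36.0% of all genes did) and 7 below (41.9%). Of the 11 compared genes 1 was lower (13.6% of all genes were) and none higher (10.0%), with a median of −0.42. Total-count scaling made it 2 lower, where 2420 of all 12694 genes were lower. RBX1, a ligase subunit used by most cells, was listed with 4 to 7 reads, so a low count in this table need not be a low level.

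Transcription factors known to act on the inhibitor genes had 12 of 26 compared members higher and 4 lower with palbociclib, at a median of 0.65. Over all genes compared, 10.0% were higher and 13.6% lower. With total-count scaling 11 were higher and 5 lower, where 852 and 2420 of all 12694 genes were. The list median was then 0.45. FOS was at 21.3 (18.4 to 24.7), JUN at 18.9 (17.6 to 20.3), KLF6 at 6.43 (6.04 to 6.83) and EGR1 at 6.02 (5.77 to 6.29). FOXO3, a known activator of CDKN1B and other inhibitor genes, was at 3.1 (2.93 to 3.28). The other FOXO genes listed did not follow it. FOXO4 was lower, at 0.428 (0.336 to 0.542), and FOXO1 was at 1.12 (0.952 to 1.31). MYC, a known repressor of CDKN1A and CDKN2B, was at 2.22 (2.16 to 2.27), and its partner in that repression, ZBTB17 (MIZ1), at 2.81 (2.59 to 3.05). ID1, an inhibitor of helix-loop-helix factors, was the furthest below, at 0.227 (0.208 to 0.248). The FOXO genes, ZBTB17 and MYC are given for their known roles and were chosen after their values were seen.

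TGF-beta is the classical inducer of CDKN2B, through SMAD proteins. Of 11 compared genes of that pathway, 6 were higher (10.0% of all genes were) and 1 lower (13.6%) with palbociclib, at a median of 1.11. With total-count scaling 4 were higher and 1 lower, where 852 and 2420 of all 12694 genes were. The repressor gene SKIL was at 2.9 (2.48 to 3.41), and SMAD7, an inhibitor of the pathway, at 2.7 (2.21 to 3.3). SMAD6, another inhibitor, was at 0.21 (0.104 to 0.389), from 74, 88 and 12 reads in the untreated, siRNA and palbociclib libraries. With siRNA none was called (1.22% of all genes were). By counting intervals 3 of the 11 lay above 1 with siRNA (17.7% of all genes did) and 5 below (23.7%). SMAD7 was at 0.515 (0.383 to 0.687), SKIL at 0.73 (0.591 to 0.9) and SMAD4 at 0.866 with siRNA, and all were higher with palbociclib. Other members went otherwise. TGFB1 was at 1.08 with siRNA and 2.16 with palbociclib, SMAD3 at 1.08 and 2.51, and TGFBR1 at 0.713 and 0.657. A link of these genes to CDKN2B was not tested.

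Polycomb proteins are known to hold the CDKN2A and CDKN2B locus silent, and DNA methyltransferases to silence p16. With palbociclib 4 of 20 compared genes were higher (10.0% of all genes were) and 5 lower (13.6%), at a median of −0.20. With total-count scaling 1 was higher and 6 lower, where 852 and 2420 of all 12694 genes were. KDM6B, a demethylase that opposes Polycomb, was at 4.88 (4.54 to 5.25). The Polycomb subunit genes CBX2 and PHC1 were at 0.329 (0.302 to 0.358) and 0.383 (0.29 to 0.501), and the methyltransferase gene DNMT3B was at 0.373 (0.33 to 0.421).

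Genes beside each locus and antisense transcripts were looked at next, in the gene order of RefSeq GRCh38.p14. Within 3 protein-coding genes on either side of an inhibitor gene, 23 other genes were compared. With palbociclib 5 were higher (10.0% of all genes were) and 3 lower (13.6%), at a median log2 ratio of 0.09. This window was drawn up after values were seen. Around CDKN1C, an imprinted segment, 5 were compared and went both ways. PHLDA2 was at 2.53 (2.45 to 2.6) and SLC22A18 at 2.08 (1.7 to 2.55), both higher. NAP1L4 was lower, at 0.338 (0.315 to 0.362), from 3992 untreated, 3707 siRNA and 1042 palbociclib reads. TSSC4 at 1.76 (1.65 to 1.88) and KCNQ1 at 0.647 (0.451 to 0.917) did not reach the rule. The antisense RNA KCNQ1OT1, which lies within KCNQ1, was higher at 3.31 (2.2 to 5.08), from 34, 58 and 87 reads, and the deposited counts may not separate the strands. With siRNA SLC22A18, at 2.05 (1.69 to 2.5), was the only one of the 23 called (1.22% of all genes were). The log2 ratios of SLC22A18, 1.03 with siRNA and 1.05 with palbociclib, were just past the size rule. Near CDKN1B, DUSP16 was at 5.38 (4.7 to 6.17) and GPRC5A at 2.37 (2.26 to 2.48) with palbociclib, both higher. Near CDKN2D, ATG4D was higher at 2.03 (1.85 to 2.22), S1PR5 lower at 0.183 (0.127 to 0.256) and SLC44A2 lower at 0.42 (0.381 to 0.462). The log2 ratio of ATG4D, 1.02, was also just past the rule. The 3 compared neighbours of CDKN2C were not called, with FAF1 at 0.941 (0.864 to 1.02), RNF11 at 1.83 (1.71 to 1.95) and TTC39A at 0.826 (0.685 to 0.995). None of the 4 compared beside CDKN1A was called, nor was MTAP beside CDKN2A and CDKN2B, at 0.69 (0.649 to 0.734). The antisense RNA CDKN2B-AS1 had 2 reads in each library and in GENCODE 29 covers 7.88% of the exon bases of CDKN2A on the opposite strand. The list of neighbours and antisense transcripts itself had 3 of 13 compared genes higher and 1 lower with palbociclib, at a median of 0.20. With total-count scaling 2 were higher and 1 lower, where 852 and 2420 of all 12694 genes were. With median-of-ratios size factors in place of TMM, none of the 13 was called with siRNA. Of all 12694 genes, 127 were then higher and 19 lower.

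Genes linked to quiescence and exit from the cycle had 4 of 10 compared members higher and 1 lower with palbociclib, at a median of 0.95. Over all genes compared, 10.0% were higher and 13.6% lower. With total-count scaling 3 were higher and 1 lower, where 852 and 2420 of all 12694 genes were. The list median was then 0.75. Median-of-ratios size factors made it 5 higher and 1 lower, where 1323 and 1657 of all 12694 genes were. BTG1, an antiproliferative gene, was at 4.9 (4.27 to 5.65), HBP1 at 2.91 (2.47 to 3.44) and YPEL3 at 2.68 (1.67 to 4.42). LMNB1, the lamin B1 gene whose loss marks senescent cells, was at 0.284 (0.266 to 0.303). With siRNA none was called (1.22% of all genes were) and the median was 0.05.

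**Figure D5:**
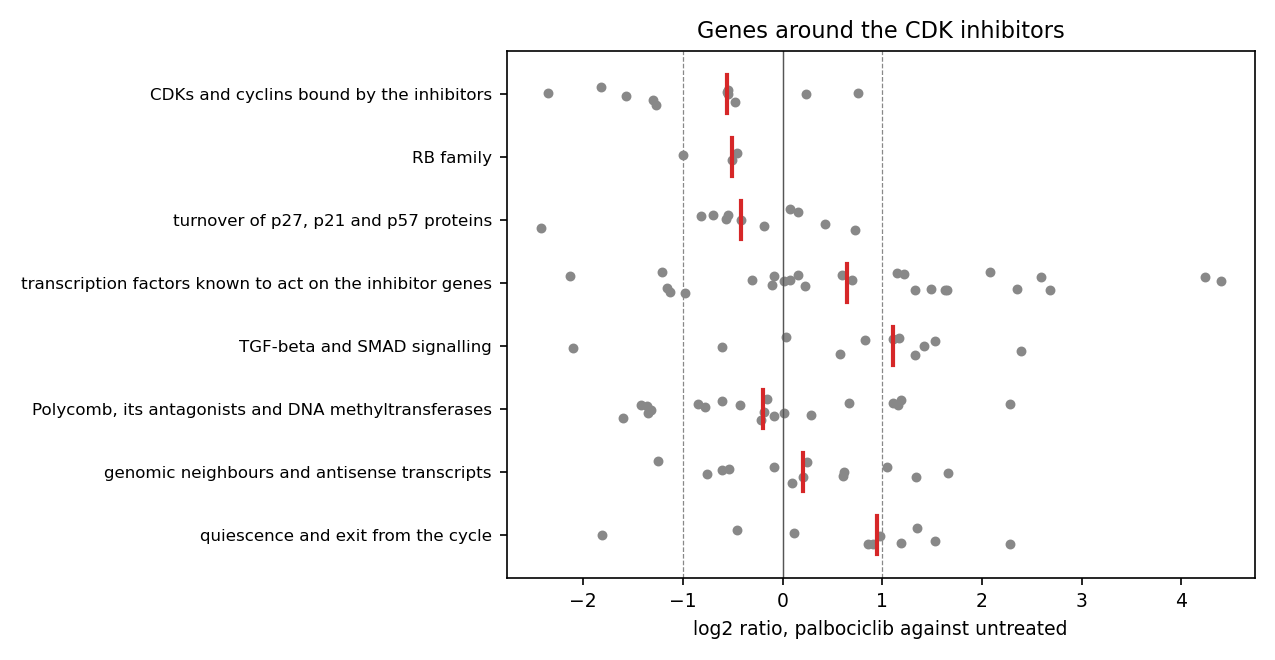
Log2 ratio of palbociclib against untreated for the compared genes of 8 lists around the CDK inhibitors (grey points, 1 per gene, spread vertically for visibility), with the list median in red. Dashed lines mark a log2 ratio of 1. Medians run from −0.56 for kinases and cyclins to 1.11 for TGF-beta and SMAD signalling, beside −0.07 over all genes compared.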

How the data were processed

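RNA sequencing of 3 HCT116 libraries was analysed from a table of read counts and a table of FPKM values, both deposited by the authors. The deposited counts are whole numbers per gene, not normalised, and the authors' FPKM rescale them by gene length and library total. The submitters' processing notes name hg19, DESeq and HTSeq 0.6.1. Aligner, annotation and strand setting: not given in the sources used here. Columns were matched by library title. With edgeR 4.0.16 (R 4.3.3), the TMM factors were 1.03 for untreated, 1.07 for siRNA and 0.901 for palbociclib. Log2 ratios carry a prior count of 2, and ratios without a log carry none. Intervals (95%) are exact Poisson for CPM and Clopper-Pearson for ratios (scipy 1.17.1), and like the floor of 3 counts cover counting error only, as reads lacking molecular identifiers need not stem from separate molecules. Ratios were checked on simulated counts.

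With 1 library per group no test was run. The members and gene lists were chosen with earlier results of these data known. Named from each list were up to 4 members furthest past the size rule against untreated and the furthest contrary one, besides the 3 nearest genes of each inhibitor. PECAM1 was not found by symbol. Some genes that the rule names and 1 list are not reported here. GC content came from GENCODE 29 transcripts, matched for 90.6% of the genes compared. Alternatives were other scalings, prior counts, filters, a 1.5-fold rule, summed entries and subtraction of length trends. Subtraction of the GC trend was added after seeing the data.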

Additional observations from a re-analysis of the deposited data

How the results depend on the processing

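Over total-count scaling, median-of-ratios size factors, deposited FPKM, a prior count of 0.5, no low-count filter, a minimum of 5 CPM, summed entries, and subtraction of the trend with length or with GC content, CDKN1C, CDKN2B and CDKN2C kept their calls against untreated. Their palbociclib log2 ratios ranged from 2.70 to 2.99, 1.65 to 1.87 and −3.78 to −3.48. A 1.5-fold rule added CDKN1A and CDKN2A, which made 4 higher with palbociclib against untreated. The share of all genes higher under the 1.5-fold rule was not determined, and the 10.0% given above is for the 2-fold rule. The count of 4 therefore has no background to be compared with. CDKN1A against siRNA lost its call with total-count scaling and with FPKM, at 0.98 each. The log2 ratio of CDKN1B with palbociclib against untreated ranged from −0.52 to −0.28, and that of CDKN2D from −0.29 to 0.08. Rescaling FPKM by TMM put the CIP/KIP sum at 0.751 of untreated with siRNA, in place of 0.78, and at 2.02 with palbociclib, in place of 1.76, and the INK4 sum with palbociclib at 1.45 in place of 1.26. No paired analysis was possible because each group has 1 library, and no library could be left out. Depth limits CDKN2C most, with 28 reads in the palbociclib library.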
